A study of Mus musculus with 2 samples.

Results

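Transcripts of the proteasome were compared between uterine epithelial cells of control and Stat3 knockout mice at day 4 of pregnancy. The genes were chosen by name: their single gene symbol in the array's annotation begins with Psm, a letter from a to g and a digit, and Psmb8 and Psmb9 were left out. This gave 46 of the 12393 genes read by the array, with 83 probe sets among them, and each gene was represented by its brightest probe set. They fall into 8 genes of the alpha ring, 7 of the beta ring, 9 of the base, 8 of the lid, 7 assembly chaperones, 3 regulators (Psme3, Psme4 and Psmf1) and the interferon-induced Psmb10 and Psme1. Psmc3ip, which encodes a partner of the meiotic recombinases, and Psme3ip1, which encodes a protein that binds the activator PSME3, match the pattern by name and are not proteasome subunits. Psme2, the partner of Psme1, has no probe set of its own in the annotation, and the probe set paired with both Psme2 and Psme2b is described apart.

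The proteasome degrades proteins marked with ubiquitin. Its barrel-shaped core is built of alpha rings, which gate the entrance, and beta rings, which carry the peptide-cutting sites. A regulatory particle sits on the core: its base holds the ATPases that unfold substrates, and its lid holds the enzyme that removes the ubiquitin chain. Interferon replaces the cutting subunits with immunoproteasome forms, which favour the peptides shown on MHC class I molecules, and induces the activator formed by PSME1 and PSME2. Transcripts of the standard subunits are known to be raised together by the transcription factor NFE2L1 when proteasome activity falls short.

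Each group was 1 array of the Affymetrix Mouse Genome 430A 2.0 type, read with total RNA labelled as mouse uterine epithelium, which was dissociated with trypsin. The labels' extraction text instead names human endometrial stromal cells, and the cell type given in the sample characteristics was used. The series' design text gives n = 3 for each sample and says that the RNA was pooled. The control carries the genotype label control and the other array Stat3 knockout, while both share a title that names Stat3 flox control mice; a Cre driver is not given in the sources used here. With 1 array a group there is no replicate check, no p-value and no SD of a group, and differences are described by their size. Values are MAS5 signals, the brightness of a probe set on a linear scale, and ratios are log2 of knockout over control. Signals under a floor of 14.0, the 40th percentile of all signals, were set to the floor, and a gene under it on both arrays has no ratio.

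Both arrays had the same trimmed mean signal of 150.1, and 8304 genes had a ratio. Stat3 itself read 582 on the control array against 186 on the knockout array, 3.12-fold lower. Where its probe sets lie relative to the deletion was not determined. The ratio of 3′ to 5′ signal of Gapdh, which rises as RNA degrades, was 0.736 on the control array and 0.699 on the other, while that of Actb went the other way, with 1.504 and 1.561. All 8 epithelial markers were over the floor on both arrays, with summed signals of 20875 and 21440 in control and knockout. Single epithelial markers went both ways, with log2 ratios from -1.79 (Krt7) to 1.07 (Cldn4). The 12 stromal and muscle markers summed to 2680.4 and 3621 (4 of them under the floor on both arrays), the 17 leukocyte markers to 925 and 1016 (6 under the floor on both), and the 8 endothelial markers to 83.5 and 73.9 (5 under the floor on both). Log2 ratios of single markers ran from -0.69 to 0.73 in stroma and muscle and from -0.95 to 1.02 in leukocytes. The part of these cell types in the results was not tested. In RNA of a whole cell preparation, fewer cells of a type and less RNA per cell cannot be told apart.

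The subunits of the core, base and lid had slightly lower signals in the knockout, almost without exception. Of 32 such genes 31 had a ratio, all over the floor on both arrays, and 30 of the 31 lay under 0 on the log2 scale, as did 46.6% of all genes with a ratio. After median centring 29 of the 31 lay under 0, since Psmc4 joined Psmd3 above it. Their median log2 ratio was -0.40, which is 75.9% of the control signal, against 0.048 over all genes. The ratios lay close together: the quartiles of the subunits were -0.55 and -0.28, a width of 0.27, and those of all genes -0.40 and 0.46, a width of 0.86. Among the 2424 genes with mean signals in the same range as these subunits, 47.7% were under 0, the median was 0.036 and the quartiles were 0.78 apart.

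The differences were small in each gene. Of the 31 subunits, 5 were at least 1.5-fold lower (Psmb7, Psmd13, Psmd14, Psmd1 and Psmc3), a share near the 18.6% of all genes that were, and 0 were at least 1.5-fold higher, against 19.4% of all genes. The number at least 1.5-fold lower was 8 under loess scaling, where 20.7% of all genes were, and 4 after median centring, where 16.7% were. None was past 2-fold in either direction, while 9.92% of all genes were lower by 2-fold or more and 7.37% higher by as much. Probe sets of 1 gene differed in log2 ratio with an SD of 0.31 over 2853 genes, a spread that covers neither animals nor arrays, and 21 of the 31 subunits lay further than that below 0, as did 29% of all genes and 27.3% of the genes in the same signal range.

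**Figure D1:**
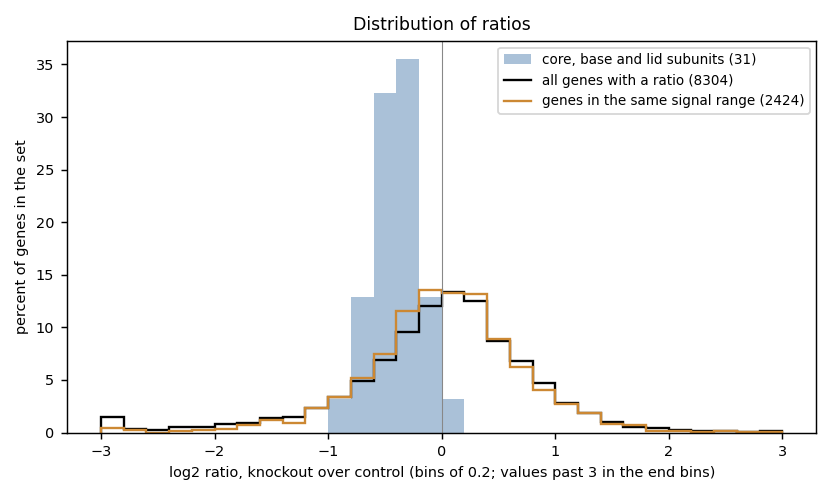
Percent of genes per bin of 0.2 in log2 ratio (knockout over control) for the 31 core, base and lid subunits (filled), all 8304 genes with a ratio (black line) and the 2424 genes in the same signal range (orange line). The subunits form a narrow peak under 0, inside the left flank of the much wider distribution of all genes.

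**Figure D2:**
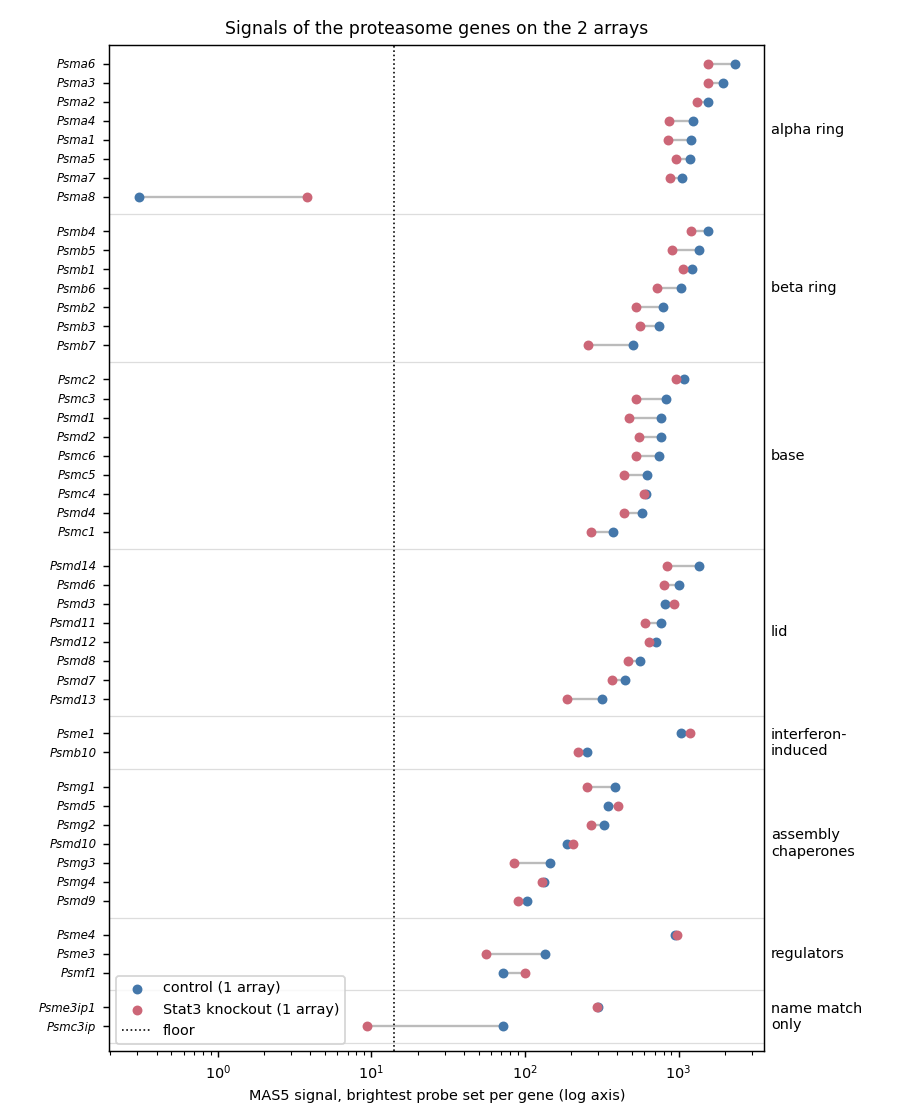
MAS5 signal of the brightest probe set of each of the 46 genes on a log axis, in the control array (blue) and the Stat3 knockout array (red), with the floor of 14.0 as a dotted line. In the core, base and lid the knockout point lies left of the control point for each measured gene except Psmd3, and Psma8 is under the floor on both arrays.

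In the alpha ring, which forms the outer wall and the gate of the core, the 7 genes with a ratio were all lower on the knockout array. Their median was -0.33, with values between -0.58 and -0.23. Psma6 read 2319 in control and 1551 in knockout cells, a log2 ratio of -0.58. Psma1 had 1213 and 849 (-0.52), and Psma4 had 1245 and 874 (-0.51). These 3 genes had the lowest ratios of the ring. Psma3, Psma5, Psma7 and Psma2 lay between -0.33 and -0.23, and the last of them had signals of 1550.4 and 1317. Psma8, which encodes the alpha subunit of the testis proteasome, was under the floor on both arrays, with signals of 0.307 and 3.82, and has no ratio.

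In the beta ring all 7 constitutive genes were lower, with a median of -0.52, or 69.7% of the control signal, though Psmb1 was at 0.10 when all its probe sets were averaged, through a dim one that was under the floor in the control. The 3 genes for the cutting sites were among the 4 lowest ratios of the ring. Psmb7, the trypsin-like site, read 505 and 259, for a log2 ratio of -0.96, the lowest of all core, base and lid genes. Psmb5, the chymotrypsin-like site, had 1354 and 912 (-0.57). Psmb6, the caspase-like site, had 1038 and 723 (-0.52). Of the subunits without a cutting site, Psmb2 had signals of 794 and 530.2 (-0.58), and Psmb3 had a log2 ratio of -0.40. Psmb4, the brightest of the ring, had 1562 and 1203 (-0.38). Psmb1 had 1219 and 1074 (-0.18), the smallest difference of the ring.

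In the base all 9 genes were lower, with a median of -0.49, except that Psmc4 was at 0.013 after median centring and Psmc6 at 0.49 from its dimmest probe set, used when shared probe sets were left out. The ATPases, which form the ring that unfolds and threads substrates, had signals of 829 and 531 for Psmc3 (log2 ratio -0.64), 619.8 and 440.2 for Psmc5 (-0.49), 747 and 532 for Psmc6 (-0.49) and 376 and 269 for Psmc1 (-0.49). The other ATPase genes had smaller differences, with 1084 and 964 for Psmc2 (-0.17) and 617 and 596 for Psmc4 (-0.051). Psmd1 and Psmd2, the large scaffold subunits of the base, had signals of 769.8 and 477 (-0.69) and of 769 and 554 (-0.48). Psmd4, a receptor for ubiquitin chains, had 579 and 439 (-0.40). The quartiles of the 9 ratios were 0.097 apart on the log2 scale.

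Lid genes covered a wider range, with 7 of 8 lower and a median of -0.31. Psmd14, the deubiquitinase that cuts the chain from the substrate, had signals of 1369 and 842 (log2 ratio -0.70). Psmd13, a scaffold subunit, had 319 and 187 (-0.77), the lowest of the lid. Both were lower by over 1.5-fold and lay apart from the rest of the lid. Psmd7, the inactive partner of PSMD14, and the scaffold genes Psmd11, Psmd6, Psmd8 and Psmd12 had log2 ratios between -0.34 and -0.13. Psmd12, nearest to 0 in the lid, had signals of 710 and 647. Psmd3, also a scaffold subunit, was the 1 exception among the core, base and lid, with signals of 818 and 935 (0.19), a difference smaller than the SD between probe sets of a gene.

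**Figure D3:**
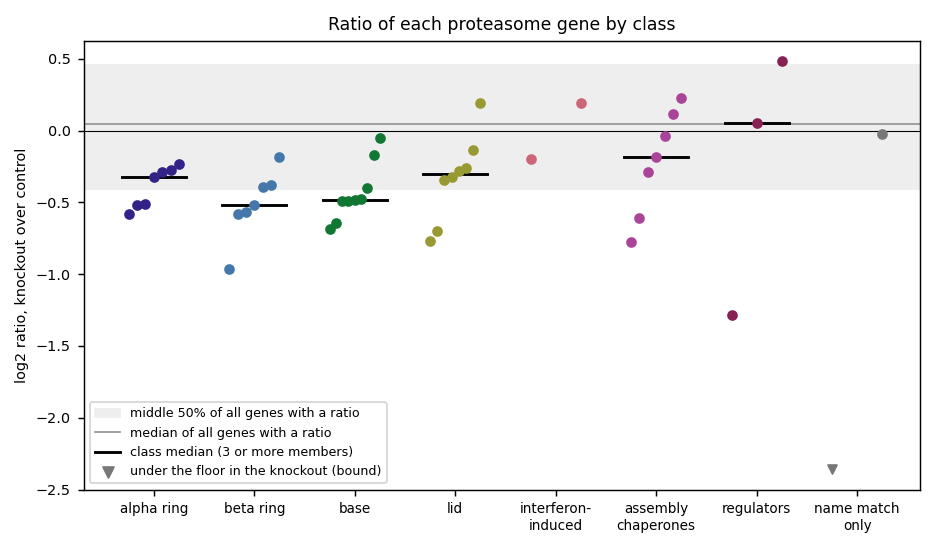
Log2 ratio (knockout over control) of the 45 genes with a ratio, by class, with the class median as a black bar where a class has 3 or more members; the grey band spans the quartiles of all 8304 genes with a ratio (-0.40 to 0.46) and the grey line is their median of 0.048. The core, base and lid points lie under 0 except Psmd3 (and, after median centring, Psmc4), while the other classes lie on both sides or, for the genes that match by name only, far apart.

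The order of these classes depended on the probe sets used. As reported, the beta ring had the lowest median (-0.52) and the lid the highest (-0.31). When probe sets that can read several transcripts were left out, the alpha ring's median went from -0.33 to -0.51 with 5 genes left, and the beta ring's from -0.52 to -0.45.

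**Figure D4:**
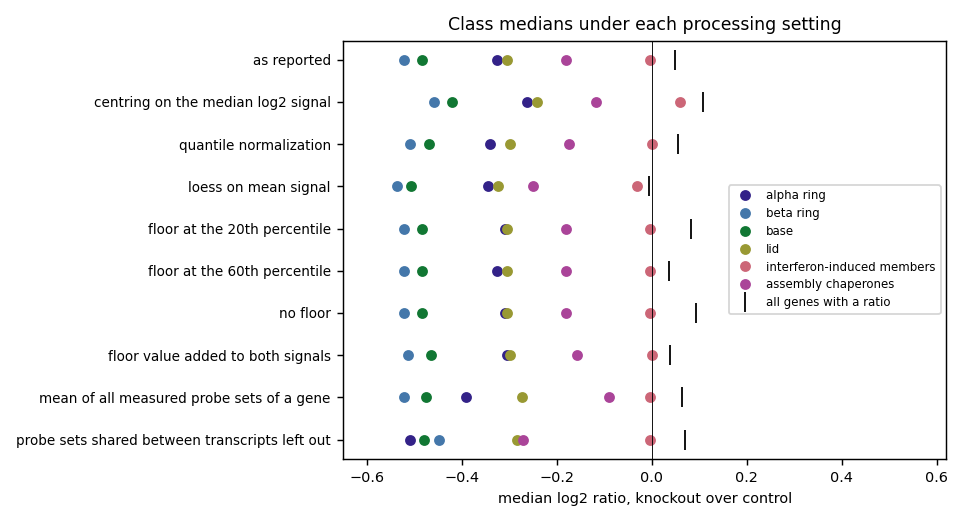
Median log2 ratio (knockout over control) of each class under the reported setting and each of 9 alternatives, with the median of all genes with a ratio as a black tick. The alpha ring, beta ring, base and lid stay under 0 and left of the tick throughout, their order changes when shared probe sets are left out, and the interferon-induced genes lie near 0.

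The 2 interferon-induced members lay on opposite sides of 0. Psme1, a subunit of the activator that opens the core without ATP, read 1042 in control and 1190.5 in knockout cells (0.19). Psmb10, the immunoproteasome subunit that takes the place of PSMB7, had signals of 255 and 222 (-0.20). Both ratios were smaller than the SD between probe sets, and each gene has 1 probe set. The probe set paired with Psme2 and Psme2b had signals of 835 and 1389, or 1.66-fold higher in the knockout (0.73), and cannot be assigned to either gene. The other immunoproteasome subunits were higher by more: Psmb8 had signals of 369 and 819 (2.22-fold) and Psmb9 had 97.3 and 639 (6.57-fold). Psmb8 takes the place of PSMB5 and Psmb9 that of PSMB6, whose own transcripts were lower, so of the 3 immunoproteasome genes Psmb10 alone was not higher in the knockout array.

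Assembly chaperones, which bring subunits together and leave before the particle is complete, were mixed, with 5 of 7 under 0 and a median of -0.18. Over all genes with a ratio, 46.6% were under 0. Of the 4 chaperones of the core, all were under 0, except that Psmg4 was at 0.023 after median centring. Psmg3 had signals of 145 and 84.5 (log2 ratio -0.78) and Psmg1 had 387 and 254 (-0.61), while Psmg2 had 327 and 267 (-0.29) and Psmg4 had 133 and 129 (-0.041). Of the 3 chaperones of the base, Psmd9 had 103 and 90.6 (-0.18), Psmd10, also known as gankyrin, had 189 and 205 (0.12), and Psmd5 had 346 and 404 (0.23). The lower signals were thus on the side of the core chaperones, with a median of -0.45 against 0.12 for those of the base, on few genes. Averaging the probe sets of each gene moved the median of all 7 from -0.18 to -0.090. Leaving out shared probe sets, which left 6 of these genes, moved it the other way, to -0.27.

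Apart from the genes that match by name only, the 3 regulators differed most among themselves. Psme3, which encodes the nuclear activator PA28 gamma, had signals of 135 and 55.5, or 2.44-fold lower (log2 ratio -1.29). A dimmer probe set of Psme3 had 47.7 and 25.4 (-0.91), also lower. Psme3 was the only gene over the floor on both arrays past 2-fold among the 46. Psme4, the large activator PA200, had 947 and 984 (0.055), and its other probe sets had log2 ratios of 0.12 and 0.33. Psmf1, which encodes the regulator PI31, had 71.5 and 99.9 (0.48), the highest of the 45 ratios. Its next brightest probe set had 82.9 and 79.6 (-0.059), and its dimmer ones had log2 ratios of 0.66 and 0.32, so 3 of the 4 probe sets read higher in the knockout.

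Of the genes that match by name only, Psmc3ip read 72.0 in control and 9.31 in knockout cells, the latter under the floor, and was at least 5.13-fold lower. It has a ratio only through the control array, so with the floor that ratio could only be under 0. Without a floor its log2 ratio was -2.95. Psme3ip1 had 299.8 and 294 (-0.026). Over all 46 genes, 44 were over the floor on both arrays, and 38 of these were under 0. Their median was -0.34. Without the genes that match by name only, 37 of 43 were under 0. For comparison, the array had 7513 genes with neither signal below the floor, and 46.1% of them had a ratio under 0.

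Probe sets that the choice of the brightest did not use gave a further reading of the same RNA. A next brightest probe set over the floor on both arrays existed for 17 members, and in 16 it had the direction of the brightest. For the 13 of these in the core, base and lid, all were under 0, with a median of -0.38 and values from -0.61 to -0.0078. The last value was that of a dim Psmb1 probe set with nearly equal signals of 23.7 and 23.5. By their brightest probe sets, 46.6% of all genes were under 0. Their brightest probe sets had a median of -0.34, and the absolute difference between both probe sets of a gene had a median of 0.17. Psmc6 had 231 and 220.2 in its next brightest probe set (-0.069, against -0.49), and Psmc4 had 524 and 409 (-0.36, against -0.051), so in both genes the size of the difference depended on the probe set. Of all 24 unused probe sets of the members that were over the floor on both arrays, 17 were under 0. Still dimmer probe sets of some genes read over 0. The dimmest Psmc6 probe set had 24.2 and 34.1 (0.49), one of Psma6 had 48.6 and 51.5 (0.084), and one of Psmd11 had 200.3 and 218 (0.12).

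**Figure D5:**
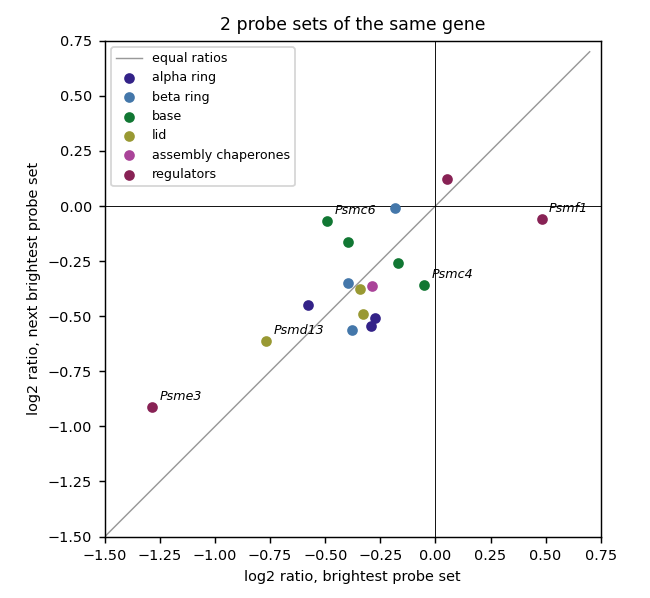
Log2 ratio (knockout over control) of the next brightest probe set against that of the brightest, for the 17 genes with both over the floor on both arrays; the diagonal marks equal ratios. Psmf1 alone lies on opposite sides of 0, and Psme3 is lowest in both.

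Genes that work with the proteasome without, in most cases, carrying a Psm name were spread on both sides of 0. Of 32 listed, 21 had a probe set of 1 gene symbol. Of these, 14 were under 0 and 7 over 0, with a median log2 ratio of -0.10 and quartiles of -0.62 and 0.25, as far apart (0.86) as those of all genes. Psme3ip1 is counted here as well. Over all genes 46.6% were under 0. At 1.5-fold, 6 of the 21 were lower and 1 was higher, against 18.6% and 19.4% of all genes. Uchl5, a deubiquitinase bound to the base, had signals of 655 and 215.5 (log2 ratio -1.60) and was the only one past 2-fold. Sem1, a small lid subunit, had 1955 and 1824 (-0.10), and Pomp, the chaperone that matures the core, had 1035 and 759 (-0.45). Vcp, the segregase that extracts ubiquitinated proteins, had 1386 and 1382 (-0.0034), and Zfand5, a proteasome-binding zinc finger protein, had 1266 and 1788 (0.50). Among the genes of transcriptional control, Nfe2l1 had 336 and 398 (0.25), Ngly1, the enzyme that processes its protein, had 169 and 214 (0.34), and Nfe2l2, a related stress factor, had 1068 and 1043 (-0.033). Of these 3, only Ngly1 differed by more than the SD of 0.31 between probe sets.

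The 250 bases before the transcription start were searched for 3 motifs on both strands in the RefSeq promoters (GRCm38.p6), which held 38 of the 46 genes. Genes with no entry were Psma8, Psmb1, Psmb2, Psmb7, Psmc3, Psmd3, Psmd7 and Psmg2. The genes searched came from every class, not only the core, base and lid. Each was read from its first listed window, whereas the share over all promoters counts every window. The core of the antioxidant response element, TGANNNNGC, which NFE2L1 and NFE2L2 bind, was found before 13 of the 38 genes (34.2%) and in 35.2% of all 32851 promoter windows. Of the genes with this motif, Psmc3ip, Psmd5, Psmd9, Psmg1 and Psmg4 lie outside the core, base and lid. The GAS motif of STAT dimers, TTCNNNGAA, was found in 1 of 38 (Psmg1, an assembly chaperone), against 7.02% of all windows. The core of the interferon-stimulated response element (GAAA, any 2 bases, GAAA) was found in 3 (Psmb3, Psmd4 and Psmd9), against 2.98% of all windows. The shares for the antioxidant motif were alike in both, and those of the others rest on few genes. A match is a description of letters and not a binding site.

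The following windows, written 5′ to 3′ on the gene's strand with matches in capitals, show where the motifs lay. Psmb5, at chr14:54617996-54618245 (minus strand), and Psmb6, at chr11:70525107-70525356 (plus strand), are shown as cutting-site genes with an antioxidant motif close to the start, 47 to 39 and 9 to 1 bases before it. Psmb3, at chr11:97703184-97703433 (plus strand), has an interferon motif 163 to 154 bases and an antioxidant motif 10 to 2 bases before the start. Psmg1, at chr16:95990961-95991210 (minus strand), has the only GAS match, 243 to 235 bases before the start, which overlaps an antioxidant match at 238 to 230, so that the capitals run together. Psme1, at chr14:55578244-55578493 (plus strand), and Psmb10, at chr8:105938393-105938642 (minus strand), are the interferon-induced members, and none of the 3 motifs is in their windows.
Psmb5: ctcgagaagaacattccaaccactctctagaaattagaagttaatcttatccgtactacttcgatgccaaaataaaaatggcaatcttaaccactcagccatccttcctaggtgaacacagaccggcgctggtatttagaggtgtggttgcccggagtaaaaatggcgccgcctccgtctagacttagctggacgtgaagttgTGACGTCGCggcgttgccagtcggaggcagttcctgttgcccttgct
Psmb6: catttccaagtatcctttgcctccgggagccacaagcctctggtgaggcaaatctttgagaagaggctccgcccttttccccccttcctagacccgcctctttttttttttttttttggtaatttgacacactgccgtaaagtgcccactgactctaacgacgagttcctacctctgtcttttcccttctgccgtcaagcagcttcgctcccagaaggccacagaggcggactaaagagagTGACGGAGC
Psmb3: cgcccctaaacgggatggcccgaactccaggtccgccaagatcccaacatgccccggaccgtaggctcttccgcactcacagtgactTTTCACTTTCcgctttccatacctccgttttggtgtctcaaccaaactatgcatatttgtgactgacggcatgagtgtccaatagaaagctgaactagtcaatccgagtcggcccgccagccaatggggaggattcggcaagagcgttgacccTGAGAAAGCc
Psmg1: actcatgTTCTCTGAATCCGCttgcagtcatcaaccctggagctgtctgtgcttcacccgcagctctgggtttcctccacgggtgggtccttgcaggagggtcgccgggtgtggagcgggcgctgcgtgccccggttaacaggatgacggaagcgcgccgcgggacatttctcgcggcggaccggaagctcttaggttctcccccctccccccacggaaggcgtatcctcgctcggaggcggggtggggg
Psme1: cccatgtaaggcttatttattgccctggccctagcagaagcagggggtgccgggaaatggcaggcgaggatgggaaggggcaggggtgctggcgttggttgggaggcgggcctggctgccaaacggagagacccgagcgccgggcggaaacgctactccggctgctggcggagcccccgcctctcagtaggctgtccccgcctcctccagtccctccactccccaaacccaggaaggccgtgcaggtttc
Psmb10: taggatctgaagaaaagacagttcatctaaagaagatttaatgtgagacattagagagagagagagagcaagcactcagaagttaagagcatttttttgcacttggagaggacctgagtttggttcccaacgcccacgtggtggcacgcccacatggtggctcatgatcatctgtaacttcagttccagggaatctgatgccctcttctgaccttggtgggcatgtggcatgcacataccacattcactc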

How the data were processed

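Per the submitters' processing notes, MAS5 and Affymetrix Expression Console 1.1 were used. The deposited values are intensity on a linear scale, 1 for each probe set on each array. Scanner images and detection calls were not used here, and no hybridisation batch was known. The table held 22690 probe sets, 64 of them controls. Of the others, 20380 had 1 gene symbol in the platform annotation, 691 several and 1555 none, and 99.9% of the gene IDs of the first kind were found in the RefSeq table (GRCm38.p6). The brightest probe set of a gene was that with the higher log2 signal averaged over both arrays. Signals under the floor were set to it, with no pseudocount, which left 4089 genes without a ratio and 791 with a bound. Medians and counts at 1.5-fold and 2-fold were set beside those of all genes. No test was possible with 1 array per group, and the number of arrays limits the precision.

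The members and gene lists were chosen with earlier results of these data known. Every member is named, with both signals for those past 1.5-fold, nearest 0 or brightest in a class, for the interferon-induced genes and for regulators. Of the associated genes, those past 2-fold, the 3 brightest and the genes of transcriptional control are named, and Pomp was added after its values were seen. The steps were tested on simulated data. Alternatives changed the scaling (median centring, quantile, or loess with span 0.3), the floor (at percentile 20 or 60, absent, or used as a pseudocount), or the probe sets (all averaged, or shared ones left out). A planned comparison of protein sequences was not made. Python 3.11.15, pandas 2.3.3 and statsmodels 0.14.6 were used.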

Additional observations from a re-analysis of the deposited data

How the results depend on the processing

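The number of core, base and lid subunits with a log2 ratio under 0 was 29 of 31 or more under each alternative that kept these genes, and 21 of 24 when shared probe sets were left out; their median ran from -0.42 to -0.33. The median of the members ran from -0.36 to -0.28. Over all genes with a ratio, the share under 0 ran from 42.8% after median centring to 50.35% under loess scaling. The number of these subunits at least 1.5-fold lower was 5 as reported, 8 under loess scaling and 3 of 24 with shared probe sets left out. In these settings 18.6%, 20.7% and 18.4% of all genes were. The number of all members at least 1.5-fold lower was 9 of 45 as reported and ran from 7 to 12. The share of all genes ran from 11.5% to 22.5%. Of the 45 single members, 8 had no value with shared probe sets left out. In every setting that gave a value, 34 of the 45 were under 0 and 41 stayed within 0.31 of the reported log2 ratio. The others were Psmc3ip (-2.95 without a floor, -0.16 with the floor at the 60th percentile), Psmc6 (-0.022 with the mean of its probe sets, 0.49 with shared ones left out), Psmb1 (at least 0.50, a bound, since that probe set was under the floor in the control) and Psmf1 (-0.059), both with shared ones left out, where other probe sets take their place. The median of the interferon-induced genes, -0.0045 as reported, was 0.059 after median centring and 0.19 with the probe set paired with Psme2 and Psme2b, the latter chosen after seeing the data. The number of members at least 2-fold lower was 2 of 45, against 9.92% of all genes. It was 1 with the floor at the 60th percentile or without the genes that match by name only (added after seeing the data). With no floor, 1 member (Psma8) was at least 1.5-fold and at least 2-fold higher, against 0 as reported. Without a floor, 27.4% of all genes were at least 1.5-fold higher. Ratios of the dimmest members rest on signals near the floor of 14.0. No paired analysis was possible because each group holds 1 array, and no array could be left out for the same reason.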

Other observations

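The regulatory particle carries 3 deubiquitinases, and all had lower signals in the knockout array. This grouping was made after their values were seen, and 46.6% of all genes with a ratio were under 0. Psmd14 is also counted among the lid genes above. Psmd14, part of the lid, had 1369 in the control and 842 in the knockout. Uchl5, which binds the base, had 655 and 215.5, and Usp14, which trims chains reversibly on the base, had 424 and 276 (log2 ratio -0.62). Among the shuttle genes that bring ubiquitinated proteins to the proteasome, Rad23b had 530.1 and 330.1 (-0.68) and Ubqln4 had 178 and 115 (-0.63), whereas Ubqln1 had 1015 and 1253 (0.30) and Ubqln2 had 846 and 1050.4 (0.31). Of the partners of the segregase VCP, Nsfl1c had 499.6 and 268 (-0.90), Ufd1 had 152 and 229.7 (0.60) and Nploc4 had 78.4 and 71.1 (-0.14). With 1 array per group none of these differences has a replicate check.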
